A study of Mus musculus with 10 samples.

Results

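The genes described are those for the proteins of the mitochondrial ribosome, taken as every gene of the deposited count table whose mouse symbol begins with Mrpl or Mrps and a digit, without pseudogenes. The rule found 78 genes among 28585, of which 49 are named Mrpl and 29 Mrps, on 17 chromosomes and all annotated as protein-coding. They were measured by RNA sequencing in 10 libraries of cells sorted by their own fluorescence from the ischemic (ipsilateral) hemisphere of mouse brains, in 3 groups. The microglia group held 3 libraries (replicates 39, 40 and 41) of CX3CR1+ cells from CX3CR1CreERT2:Rosa26-tdT mice of 13 to 14 weeks, in which a tamoxifen-dependent Cre driven by the Cx3cr1 locus switches on a red reporter. The parabiotic group held 3 libraries (replicates 3, 11 and 15) of CD11c-eYFP+ cells taken from C57BL/6 mice of 15 to 16 weeks that shared their circulation with a Tg(Itgax-Venus)1Mnz partner, so the reporter cells came from the partner. The transgenic group held 4 libraries (replicates 23, 24, 26 and 27) of CD11c-eYFP+ cells from Tg(Itgax-Venus)1Mnz mice of 13 to 14 weeks, in which the Itgax (CD11c) promoter drives the yellow reporter in every cell that uses it, resident or infiltrating. All 3 groups share the injury, and the labels do not say that replicates came from separate animals, so p-values measure the spread between these libraries.

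Mitochondria translate a few membrane proteins of the respiratory chain from their own genome on a ribosome of their own. Its RNA comes from mitochondrial DNA, whereas all of its proteins are encoded in the nucleus, made in the cytosol and imported. Some of these proteins have a counterpart in the bacterial ribosome and the others were gained in the mitochondrial lineage. Of the 78 genes, 51 were placed on the large subunit, among them Mrps30 and Mrps18a whose products sit there despite their names, and 26 on the small subunit. Mrps36 was kept apart, since its product is known as a part of the 2-oxoglutarate dehydrogenase complex.

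Library totals lay between 31534625 and 41730688 counts, and a tested member had at least 23 counts in every library, with a median per library of 471 to 1204. After the low-count filter 77 of the 78 members remained among 15151 tested genes. Mrpl53 was the exception, with 0 to 8 counts per library, and 88.0% of its exon bases overlap other annotated genes. As a check of the group labels, 7 microglia markers (P2ry12, Tmem119 and others) summed to 15600 to 18000 CPM (counts scaled to a common library total) in microglia, 1900 to 3320 in parabiotic and 5390 to 15400 in transgenic cells. Summed over 8 dendritic cell markers (Flt3, H2-Aa, Cd74 and others), the values were 180 to 273, 19200 to 24200 and 3060 to 12300 CPM. Microglia markers were therefore high in all transgenic libraries, with none of the 7 at 0 in any group, and fewer cells of a type and less RNA per cell cannot be told apart in such bulk samples. Monocyte markers summed to 70.7 to 150, 1120 to 1350 and 326 to 1100 CPM in the 3 groups, natural killer cell markers to 0.222 to 3.62, 50.9 to 70.5 and 8.68 to 39.3 CPM, and neutrophil markers to 0.190 to 0.675, 6.32 to 838 and 0.404 to 18.5 CPM. Of the natural killer markers, Klrd1 made up nearly all of the sum in the CD11c groups, with means of 0.422, 61.5 and 20.9 CPM in the 3 groups. Klrb1c, Ncr1, Nkg7 and Gzma had means of at most 0.497 CPM and were lower in parabiotic cells than in microglia. Astrocyte markers were at 104 to 174 CPM in microglia and 2.58 to 4.46 CPM in parabiotic cells. These marker sums differ between the same groups as the members do, and their part in the members' levels was not tested. Transgenic replicates 26 and 27 carry library numbers apart from those of the other 8 libraries in the column headers. No label says what the numbers stand for, and results are given with and without these 2 libraries where they differ.

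Promoters of these genes are shown because the members moved together in the comparisons that follow. RefSeq windows on GRCm38.p6, which reach from 250 bases before to 50 bases after an annotated start, were matched for 69 of the 78 members. Letters known from nuclear-encoded mitochondrial genes were searched on both strands. GCGCA, any base and GCGC, the string bound by nuclear respiratory factor 1 (Nrf1), lay in 13 of 69 members (18.8%), against 5.19% of the 27025 genes with a window and 11.3% of the 10027 protein-coding genes tested. CCGGAAG, the core read by ETS factors such as the GABP pair, lay in 26 members (37.7%), against 9.93% and 19.9%. AAGATGGC, read by Yy1, lay in 12 (17.4%), against 3.19% and 5.25%. CACGTG, the E-box read by Myc, lay in 5 (7.25%), against 8.09% and 11.5%, and TATAAA also in 5 (7.25%), against 15.7% and 9.02%. One of the first 3 strings was present in 43 members (62.3%), against 16.4% and 32.0%. Below are 5 windows cut at 30 bases after the start, 5′ to 3′ on the strand of the gene, with matched letters in capitals: 3 members that were higher in parabiotic cells (Mrpl33, Mrpl58 and Mrpl12), 1 that was not (Mrpl17), and the window of Mrps11, which lies head to head with Mrpl46.
Mrpl33 (chr5:31613701-31613980, plus strand): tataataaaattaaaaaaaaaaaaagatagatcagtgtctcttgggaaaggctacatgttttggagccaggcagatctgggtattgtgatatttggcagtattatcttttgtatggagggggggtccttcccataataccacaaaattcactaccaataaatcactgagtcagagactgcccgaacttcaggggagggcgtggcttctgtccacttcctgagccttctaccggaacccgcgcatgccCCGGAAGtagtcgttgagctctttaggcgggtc
Mrpl58 (chr11:115403502-115403781, plus strand): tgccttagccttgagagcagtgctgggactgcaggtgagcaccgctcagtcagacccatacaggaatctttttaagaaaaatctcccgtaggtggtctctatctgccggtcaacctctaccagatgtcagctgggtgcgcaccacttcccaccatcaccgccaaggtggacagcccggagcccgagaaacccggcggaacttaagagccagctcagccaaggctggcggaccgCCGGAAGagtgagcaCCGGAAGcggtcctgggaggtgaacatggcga
Mrpl12 (chr11:120484387-120484666, plus strand): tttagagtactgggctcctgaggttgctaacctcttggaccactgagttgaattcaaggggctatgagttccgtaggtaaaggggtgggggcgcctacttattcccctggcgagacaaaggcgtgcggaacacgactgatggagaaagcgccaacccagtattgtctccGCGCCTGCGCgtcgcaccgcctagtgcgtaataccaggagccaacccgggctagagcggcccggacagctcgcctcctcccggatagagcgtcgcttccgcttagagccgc
Mrpl17 (chr7:105811058-105811337, minus strand): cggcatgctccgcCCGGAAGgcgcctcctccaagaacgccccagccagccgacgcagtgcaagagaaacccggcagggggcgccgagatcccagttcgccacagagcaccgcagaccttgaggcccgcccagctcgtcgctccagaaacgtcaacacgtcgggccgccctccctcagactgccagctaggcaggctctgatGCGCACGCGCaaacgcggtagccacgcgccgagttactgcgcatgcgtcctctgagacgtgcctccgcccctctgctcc
Mrps11 (chr7:78782881-78783160, plus strand): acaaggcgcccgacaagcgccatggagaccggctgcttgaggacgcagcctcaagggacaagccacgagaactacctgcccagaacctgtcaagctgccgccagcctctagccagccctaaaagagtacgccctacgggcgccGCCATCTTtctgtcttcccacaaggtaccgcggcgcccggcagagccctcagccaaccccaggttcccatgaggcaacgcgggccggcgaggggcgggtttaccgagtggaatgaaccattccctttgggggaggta
Mrpl33 has an ETS match that begins 3 bases before the start used for its window. That start lies inside the gene model, which begins at chr5:31596935, and not at its first base. Mrpl58 has ETS matches at 17 and 2 bases before its start. The Nrf1 match of Mrpl12 lies 81 bases before the start. Mrpl17 has both an Nrf1 match at 49 bases and an ETS match at 237 bases, and the Mrps11 window a Yy1 match at 107 bases. In parabiotic cells against microglia the median log2 fold change was 0.61 with and 0.53 without the Nrf1 string, 0.59 and 0.48 with and without the ETS string, 0.64 and 0.50 with and without the Yy1 string, 0.77 and 0.48 for the E-box and 0.36 and 0.58 for TATAAA. In transgenic cells these medians were 0.52 and 0.59 (Nrf1), 0.60 and 0.52 (ETS), 0.52 and 0.60 (Yy1), 0.67 and 0.57 (E-box) and 0.45 and 0.60 (TATAAA), so the order with the Nrf1 and Yy1 strings was the opposite one. A match describes the sequence and is not evidence of binding.

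The set was lowest in microglia. Averaged over the 77 tested members, log2 CPM came to 3.77 for microglia replicate 39, 3.73 for replicate 40 and 4.02 for replicate 41. The parabiotic libraries 3, 11 and 15 reached 4.35, 4.39 and 4.37. Among the transgenic libraries, 23 and 24 had 4.13 and 4.02, and 26 and 27 had 4.63 and 4.64. The parabiotic libraries lay close together and above all microglia libraries, whereas the transgenic group split into a pair below and a pair above the parabiotic level. Group means were 3.84 ± 0.15 in microglia (SD, n = 3), 4.37 ± 0.02 in parabiotic (n = 3) and 4.36 ± 0.33 in transgenic cells (n = 4). Summed over all 78 genes the level was 1300 ± 144, 1906 ± 31.3 and 1924 ± 454 CPM, or 0.124% to 0.144%, 0.183% to 0.192% and 0.151% to 0.231% of the counts.

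**Figure D1:**
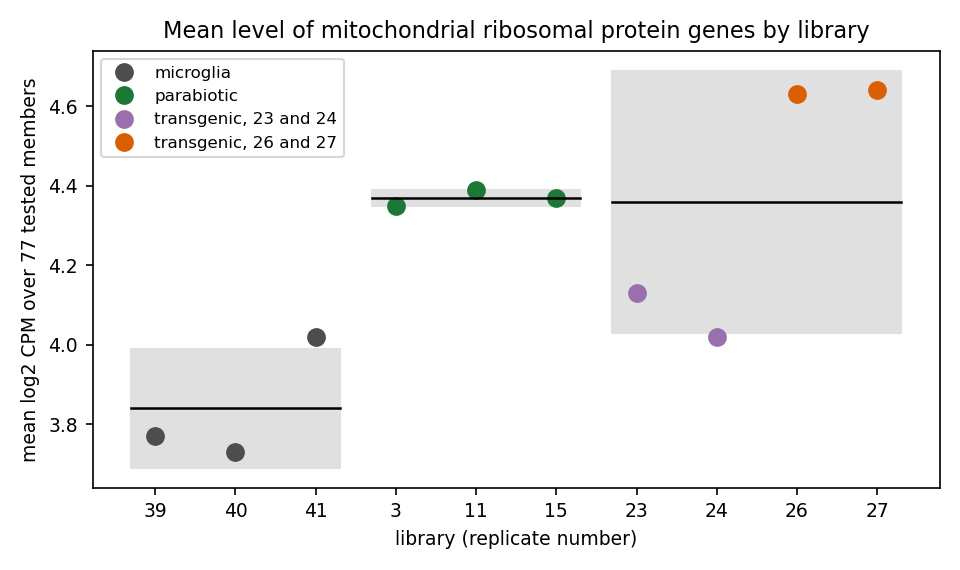
Mean log2 CPM over the 77 tested members (vertical axis, log2 scale, not starting at 0) in each of the 10 libraries (horizontal axis, by replicate number). Points are libraries, black lines group means and grey bands 1 SD. Microglia lie at 3.73 to 4.02, parabiotic libraries at 4.35 to 4.39, and the transgenic group holds 1 pair at 4.02 and 4.13 and another at 4.63 and 4.64.

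In infiltrated CD11c cells of the parabiotic mice, 23 of the 77 tested members were higher than in microglia and none was lower (edgeR, adjusted p under 0.05), where 17.4% of all tested genes were higher and 17.9% lower. The median log2 fold change was 0.58, a factor of 1.49, against −0.02 over all tested genes, and 72 of the 77 values were positive. Of the members, 62 (80.5%) had every parabiotic library above every microglia library, as did 30.5% of all tested genes, and 1 (1.3%) had every library below, as did 29.7%. An unadjusted p under 0.05 was reached by 41 members, limma-voom called 22 higher and 0 lower (background 16.9% and 17.9%), and DESeq2 25 and 0 (14.3% and 16.4%). The count of 23 depended on the libraries fitted: it was 52 with only these groups in the fit (background 26.3%), 50 with a term for the set of library numbers (22.8%) and 55 without transgenic replicates 26 and 27 (27.4%). It was 8 without microglia replicate 40 (10.6%), 10 without microglia replicate 39 (12%), 10 without parabiotic replicate 11 (13.1%), 15 without parabiotic replicate 15 (12.7%) and 38 without transgenic replicate 27 (21.8%), so the background moved with it. Without those 2 libraries 72 of 77 values were again positive, with a median of 0.59.

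Mrpl33 (chr5:31596935-31664384, GRCm38, plus strand), a small protein of the large subunit with a bacterial counterpart, had the largest difference in parabiotic cells. It stood at 18.2, 15.2 and 20.3 CPM in the microglia libraries, at 40.9, 43.6 and 39.4 CPM in the parabiotic libraries, and at 33.7, 29.4, 55.1 and 51.4 CPM in transgenic replicates 23, 24, 26 and 27. All 7 CD11c libraries lay above the 3 microglia libraries. Of the Mrpl33 exon bases, 3.56% overlap Gm43809 on the same strand. The log2 fold change was 1.21 ± 0.24 (SE, adjusted p = 0.00286) in parabiotic and 1.25 ± 0.23 (adjusted p = 0.00621) in transgenic cells, and Mrpl33 was the member called in both comparisons under each of 22 alternative settings.

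Mrpl28 (chr17:26123500-26126613, GRCm38, plus strand) had the lowest adjusted p of the set in the parabiotic comparison, and its exons overlap no other annotated gene. Its values were 27.3, 28.3 and 34.2 CPM in microglia, 65.0, 59.2 and 61.8 CPM in parabiotic and 42.7, 45.3, 54.3 and 61.2 CPM in transgenic cells. The log2 fold change in parabiotic cells was 1.05 ± 0.17 (adjusted p = 0.000814), with no overlap between these groups. For Mrps28 (chr3:8802146-8923918, minus strand), of the small subunit, microglia gave 11.8, 8.23 and 11.4 CPM, parabiotic cells 23.8, 24.2 and 18.5 CPM and transgenic cells 17.3, 15.2, 23.7 and 27.6 CPM, again without overlap (1.08 ± 0.26, adjusted p = 0.00719). Mrpl40 (chr16:18872018-18876862, minus strand), a mitochondria-specific large subunit protein, was at 15.2, 13.8 and 17.4 CPM in microglia, 31.2, 33.0 and 29.2 CPM in parabiotic and 21.6, 23.1, 31.5 and 36.0 CPM in transgenic cells (1.01 ± 0.22, adjusted p = 0.00385 for parabiotic cells).

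Mrpl58, which is related to bacterial release factors and frees stalled peptides from the ribosome, stood at 11.4, 10.8 and 13.7 CPM in microglia and 22.8, 22.1 and 23.4 CPM in parabiotic cells (0.93 ± 0.21, adjusted p = 0.0052). Mrps25 had a log2 fold change of 1.09 ± 0.27 (adjusted p = 0.00918), but 69.8% of its exon bases overlap Nr2c2 on the other strand. Mrps14, Mrps24, Mrps26 and Mrpl30 completed the 10 largest called differences, with log2 fold changes of 0.96, 0.93, 0.92 and 0.90. Mrpl12, which is also known to bind the mitochondrial RNA polymerase, rose from 10.0, 10.5 and 15.4 CPM in microglia to 22.2, 20.3 and 20.0 CPM in parabiotic cells (0.80 ± 0.24, adjusted p = 0.0247). Mrps12, a protein of the decoding centre, had a log2 fold change of 0.76 ± 0.21 (adjusted p = 0.0177). The calls of Mrpl28, Mrpl33, Mrpl4, Mrpl40, Mrpl58, Mrps25, Mrps28 and Mrps7 held under all 22 alternative settings. Leaving out microglia replicate 39 or 40, or a parabiotic library, ended the Mrpl12 call, and its adjusted p ran from 0.00345 to 0.113 over the alternatives.

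**Figure D2:**
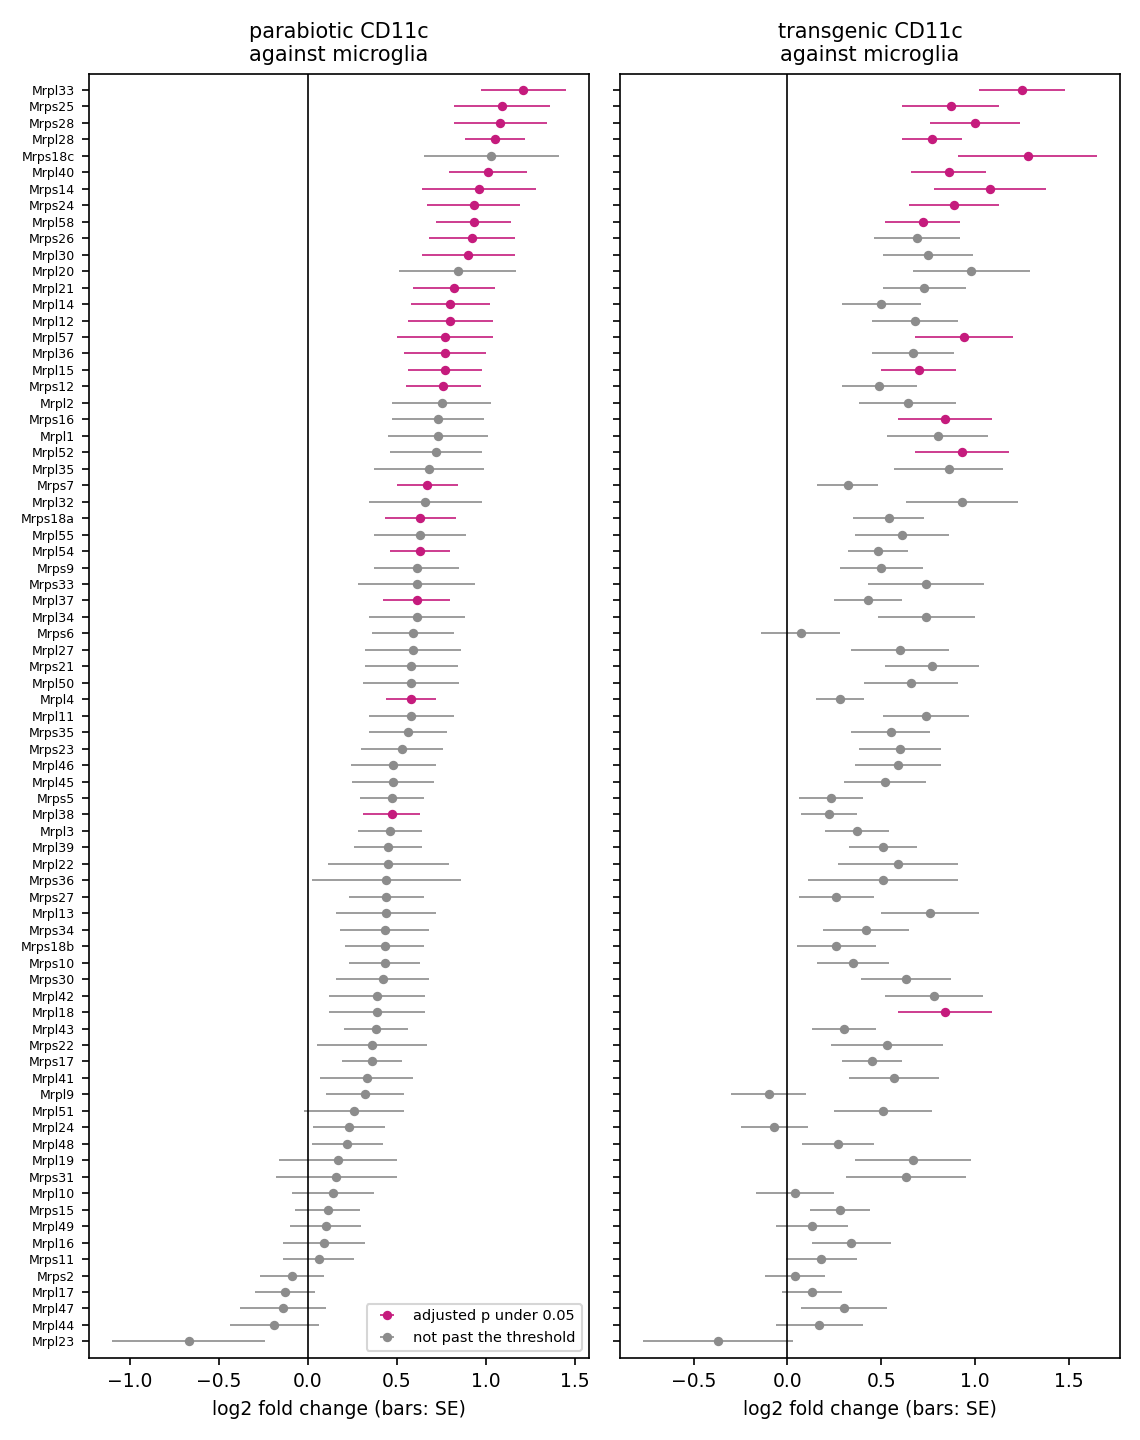
Log2 fold changes of the 77 tested members in parabiotic (left) and transgenic (right) CD11c cells against microglia, ordered by the left panel. Points are edgeR estimates, bars their SE, and coloured points have an adjusted p under 0.05. Of 77 points, 72 lie right of 0 in the left panel and 74 in the right one.

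A negative estimate in parabiotic cells was found for 5 members, none of which passed the threshold. Mrpl23 (−0.67 ± 0.43) had the lowest level per length of the tested members and varied most between parabiotic libraries, at 2.27, 0.943 and 0.911 CPM against 2.54, 2.52 and 1.49 CPM in microglia. Mrpl17 stood at 42.2, 43.6 and 45.3 CPM in microglia and 41.3, 38.0 and 40.8 CPM in parabiotic cells, and it was the member with every parabiotic library below every microglia library (−0.13 ± 0.17). Mrpl44, which carries an RNase III fold, had 14.2, 11.5 and 16.1 CPM in microglia and 10.5, 13.2 and 13.0 CPM in parabiotic cells (−0.19 ± 0.25). Mrpl47 and Mrps2 had log2 fold changes of −0.14 ± 0.24 and −0.09 ± 0.18. Over the set, estimates ran from −0.67 to 1.21 with an SD of 0.33, at a median SE of 0.24. Whether the members shifted by a common factor was not tested.

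**Figure D3:**
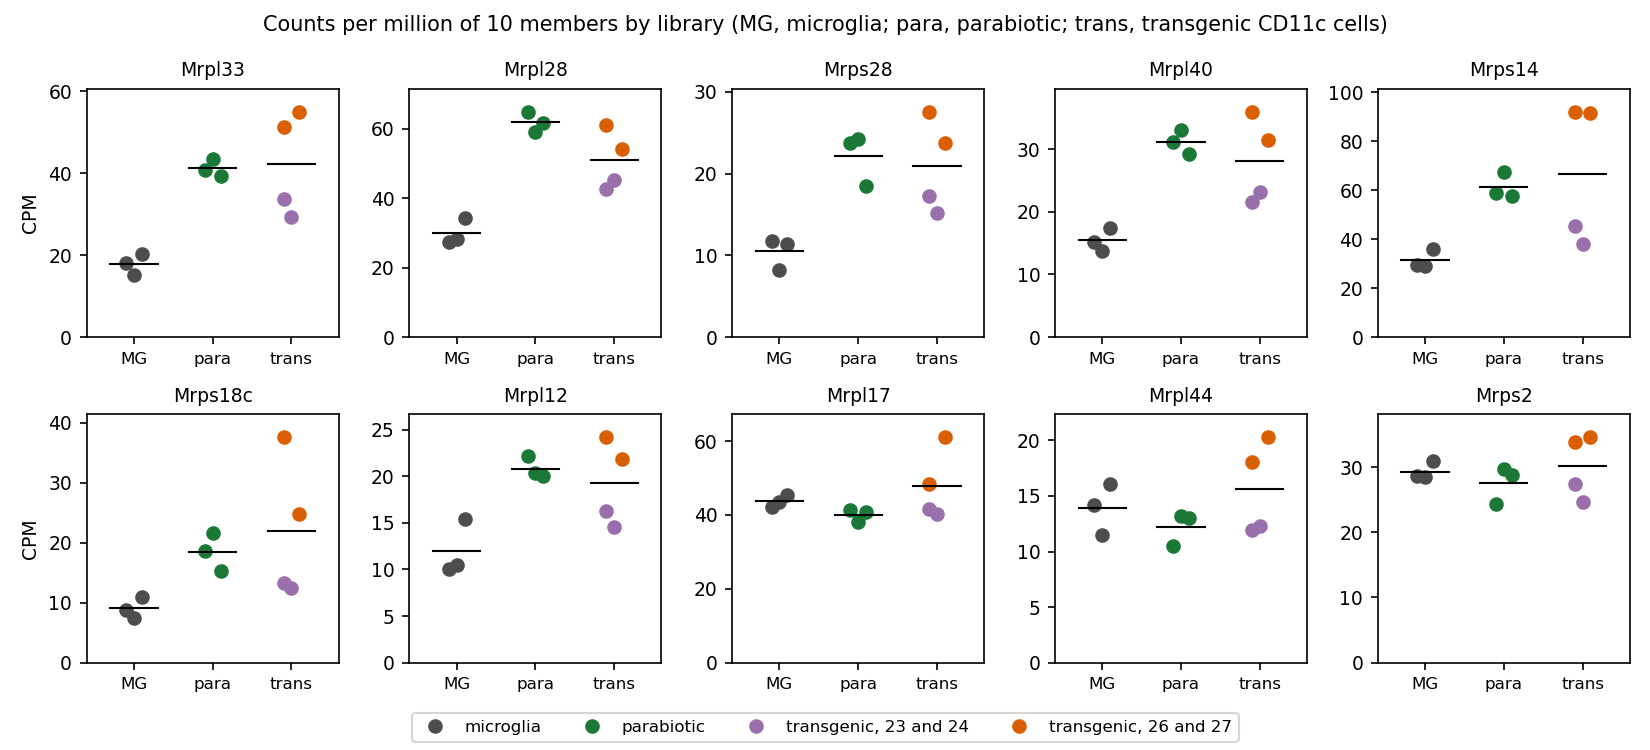
CPM of 10 members (panels, vertical axis from 0) in microglia (MG), parabiotic (para) and transgenic (trans) libraries. Points are libraries, coloured by group and, for transgenic cells, by replicate pair (23 and 24, 26 and 27), and black lines are group means. Mrpl33, Mrpl28, Mrps28 and Mrpl40 separate microglia from both CD11c groups, Mrpl17, Mrpl44 and Mrps2 do not, and replicates 26 and 27 are the upper pair of transgenic points in all 10 panels.

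Both subunits held called members. Of 50 tested large subunit genes 16 were higher in parabiotic cells and of 26 small subunit genes 7, with median log2 fold changes of 0.58 and 0.57. The same fit called 17.4% of all tested genes higher. Without transgenic replicates 26 and 27 these counts were 36 and 19, in a fit that called 27.4% of all tested genes higher. By origin, 9 of 29 large subunit proteins with a bacterial counterpart and 7 of 21 specific to mitochondria were higher in the fit of all libraries (background 17.4%). Of the small subunit it was likewise 5 of 16 and 2 of 10, the last near that background, and differences between these classes were not tested. The 3 relatives of bacterial protein S18 had log2 fold changes of 0.63 ± 0.20 for Mrps18a (adjusted p = 0.0308), 0.43 ± 0.22 for Mrps18b (adjusted p = 0.159) and 1.03 ± 0.38 for Mrps18c (adjusted p = 0.0575). Some members were fixed by role because their human counterparts are mutated in mitochondrial disease, a selection that is no full list. Of these, only Mrps7 was higher (0.67 ± 0.17, adjusted p = 0.00887). Mrpl3 (0.46 ± 0.18), Mrps16 (0.73 ± 0.26), Mrps22 (0.36 ± 0.31), Mrps34 (0.43 ± 0.25), Mrpl44 and Mrps2 did not pass. Human counterparts of the called Mrpl12, Mrps14, Mrps25 and Mrps28 are also mutated in such disease. They were picked among called members, so they do not show how often disease genes were called. Mrpl41 and Mrps30, both linked to cell death in earlier work, had estimates of 0.33 ± 0.26 and 0.42 ± 0.26, neither past the threshold. Mrps36, outside the ribosome, was near 1 CPM and gave 0.44 ± 0.42.

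**Figure D4:**
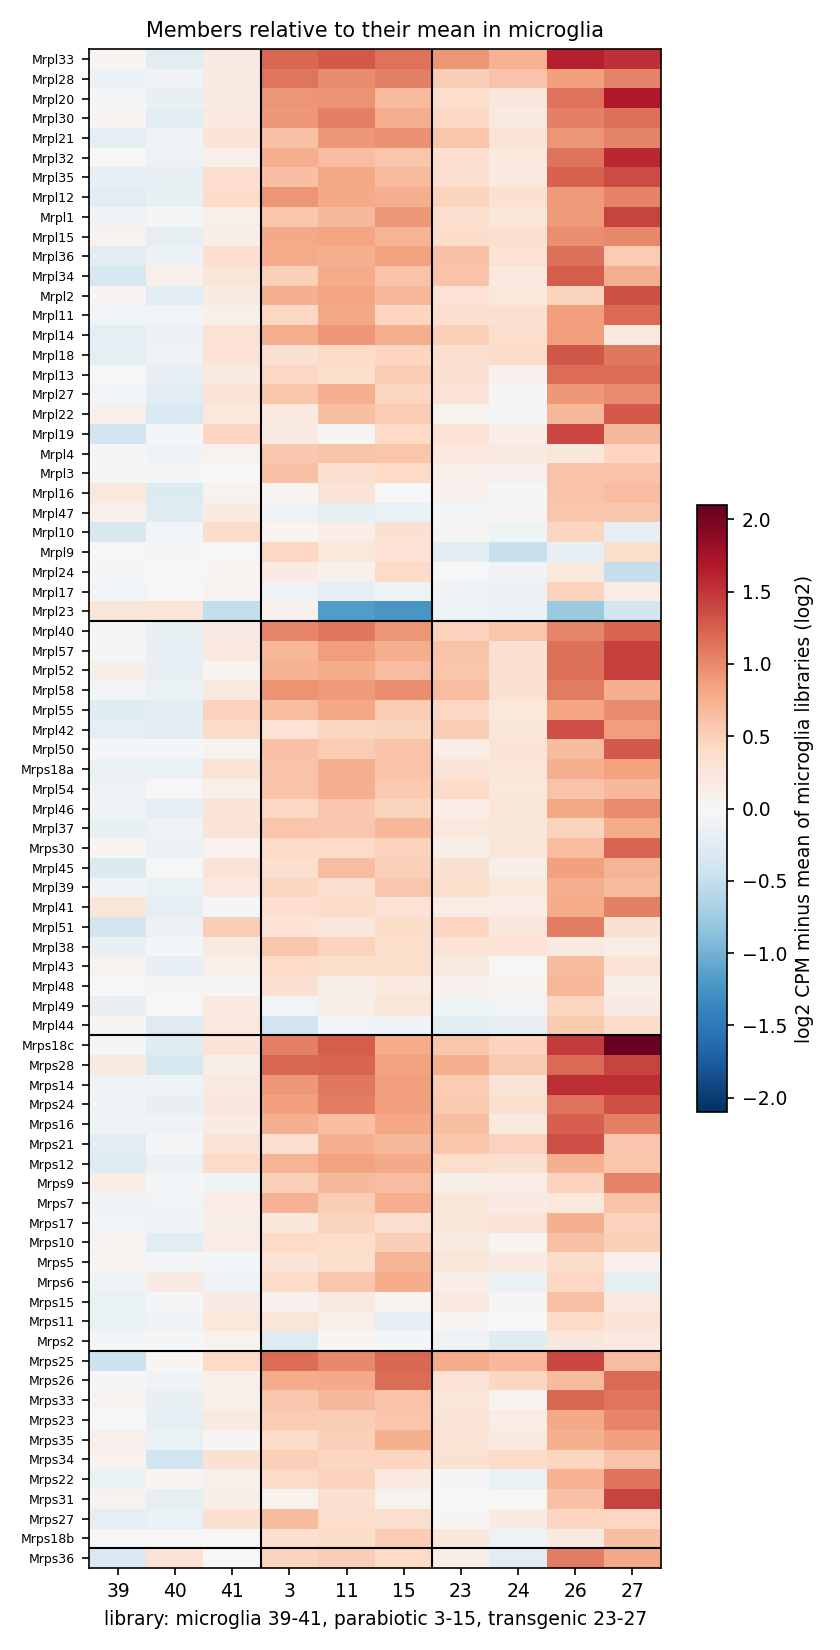
Log2 CPM of each tested member (rows) in each library (columns) minus its mean over the microglia libraries, red above and blue below. Black lines separate the groups of libraries and, from top to bottom, the large subunit proteins with and without a bacterial counterpart, the small subunit proteins with and without one, and Mrps36. Parabiotic columns are red for most rows, and transgenic columns 26 and 27 are darker than 23 and 24 in most rows.

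In transgenic CD11c cells 14 of 77 members were higher than in microglia and none lower, where 8.88% of all tested genes were higher and 4.79% lower. The median log2 fold change was 0.59 (0.02 over all tested genes), 74 values were positive, and 47 members had an unadjusted p under 0.05. Mrps18c had the largest estimate: it stood at 8.76, 7.52 and 10.9 CPM in microglia and at 13.3, 12.4, 24.7 and 37.6 CPM in transgenic replicates 23, 24, 26 and 27 (1.28 ± 0.37, adjusted p = 0.0423). Mrpl33, Mrps14, Mrps28, Mrpl57, Mrpl52, Mrps24, Mrps25, Mrpl40 and Mrpl18 followed, from 1.25 down to 0.84. For 34 members (44.2%) every transgenic library lay above every microglia library, as for 15.6% of all tested genes, and for none below, against 14.7%. The count of 14 was not stable: limma-voom gave 9 (background 6.82%) and DESeq2 23 (11.2%), with 0 lower (6.55% and 8.17%). The fit of these groups alone gave 2 (5.28%) and the term for library numbers 2, Mrpl28 and Mrpl33 (6.75%). With that term the transgenic estimates rest on replicates 23 and 24, since the libraries set apart by number are all transgenic. Leaving out a microglia library gave 1 (replicate 39, 3.66%), 1 (replicate 40, 3.54%) or 5 (replicate 41, 5.59%). Leaving out a transgenic library gave 22 (replicate 23, 10.5%), 31 (replicate 24, 12%), 4 (replicate 26, 8.02%) or 7 (replicate 27, 8.61%). Leaving out a parabiotic library gave 4 (replicate 3, 6.26%), 4 (replicate 11, 6.29%) or 5 (replicate 15, 6.3%), and the fit without replicates 26 and 27 gave 3 (Mrpl28, Mrpl33 and Mrpl40, background 9.96%) with a median of 0.24.

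The transgenic libraries fell into pairs by their library numbers. Replicates 26 and 27 both lay above replicates 23 and 24 for 63 of 77 members (81.8%), against 26.8% of all tested genes, and below for 2, Mrpl23 and Mrpl38, against 30.8%. In a fit with a term for the set of library numbers, 28 members were higher in 26 and 27 and none lower (background 7.83% and 8.2%), with a median log2 difference of 0.58. Mrps14, whose product lies in the small subunit, had 45.3 and 38.1 CPM in replicates 23 and 24 and 91.6 and 92.2 CPM in 26 and 27 (1.14 ± 0.16, adjusted p = 0.00401). Mrps18c (1.28 ± 0.26), Mrpl20 (1.13 ± 0.20), Mrpl32 (1.10 ± 0.18), Mrps31 (1.07 ± 0.26) and the disease gene Mrps22 (1.03 ± 0.21) differed between the pairs by similar amounts. Replicates 26 and 27 also had more counts from those genes of the mitochondrial genome that the table holds, at 0.816% and 0.624% against 0.422% and 0.214% in 23 and 24. Their dendritic markers were lower, at 3060 and 5030 CPM against 11100 and 12300 CPM. Microglia markers did not follow the pairs, at 15400 and 5390 CPM in 26 and 27 and 9460 and 9850 CPM in 23 and 24. Against microglia, 26 and 27 were above every library for 68 members (88.3%, all tested genes 28.7%) and 23 and 24 for 36 (46.8%, all tested genes 25.7%). All 4 libraries have the same group label, so what the library numbers stand for and the cells sorted cannot be told apart.

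Between the CD11c groups no member was called higher or lower in transgenic cells by edgeR, limma-voom or DESeq2, where edgeR called 7.63% of all tested genes higher and 2.42% lower, limma-voom 6.46% and 3.6%, and DESeq2 8.85% and 4.24%. An unadjusted p under 0.05 was reached by 3 members in edgeR and by 4 in each of the other tools. Every transgenic library lay above every parabiotic library for 1 member, Mrpl47 (all tested genes 12.4%), and below for 2, Mrpl4 and Mrpl38 (10.3%). The median log2 difference was 0.04 (0.04 over all tested genes), with estimates from −0.51 ± 0.21 (Mrps6) to 0.50 ± 0.31 (Mrpl19). Parabiotic libraries lay within the gap of the transgenic group: all 3 were above transgenic replicates 23 and 24 for 58 members (75.3%, all tested genes 27.6%), and 26 and 27 were above all parabiotic libraries for 40 (51.9%, all tested genes 25.2%). The full order of 26 and 27 above parabiotic above 23 and 24 held for 27 members (35.1%) and 4.86% of all tested genes. Against replicates 23 and 24 alone, 15 members were lower in transgenic than in parabiotic cells (background 9.23%) and the median was −0.35. Mrpl9 had the largest of these differences, with 13.8 and 11.7 CPM in replicates 23 and 24 against 22.1, 18.9 and 20.1 CPM in parabiotic cells (−0.69, adjusted p = 0.00759). Mrpl28 also belonged to the 15 (−0.51, adjusted p = 0.0177). With the set of library numbers as a term the count lower was 2 (Mrpl28 and Mrps14, background 2.53%), at a median of −0.33. That median also rests on transgenic replicates 23 and 24, so it is no separate check of −0.35.

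The tested members differ widely in level per length, here CPM divided by the length of all annotated exons in kilobases. In microglia Mrps15 (23.1 ± 2.57, SD, n = 3), Mrpl28 (21.7 ± 2.71), Mrpl36 (21.4 ± 4.84), Mrpl34 (19.7 ± 4.19) and Mrpl43 (19.6 ± 1.94) were highest, and these 5 do not differ beyond their spread. Mrpl23 (0.447 ± 0.123), Mrps36 (0.650 ± 0.143), Mrps35 (1.03 ± 0.0901), Mrps25 (1.22 ± 0.353) and Mrps10 (1.48 ± 0.207) were the lowest tested members. In parabiotic cells the order at the top was Mrpl28 (44.9 ± 2.13), Mrpl36 (36.6 ± 1.22), Mrpl52 (31.8 ± 1.47), Mrpl34 (30.0 ± 2.97) and Mrpl54 (28.8 ± 2.02), of which Mrpl28 and Mrpl36 stood apart from the rest by more than their SDs. Mrpl28, Mrpl34 and Mrpl36 were among the 5 highest tested members in all 3 groups, and Mrpl23, Mrps36, Mrps35 and Mrps10 among the 5 lowest tested ones. The untested Mrpl53 lay below them all, at 0.150 ± 0.0674 in microglia. Exon lengths include rare long transcripts, so the level of a long gene model such as Mrps35 or Mrps10 is a lower estimate.

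Gene length moved with the result. The median exon length of the tested members was 2533 bases, against 4468 for tested protein-coding genes, and short genes of all kinds had higher estimates in parabiotic cells: the median log2 fold change over all protein-coding genes was 0.44 below 1000 bases, 0.40 from 1000 to 2000, 0.16 from 2000 to 3000, 0.06 from 3000 to 5000 and −0.13 above 5000. For the members it was 0.60, 0.62, 0.46, 0.61 and 0.45 over the same lengths. In transgenic cells the medians were 0.59, 0.38, 0.18, 0.06 and −0.08 over all protein-coding genes and 0.59, 0.63, 0.30, 0.69 and 0.53 over the members, so the shortest members had the median of all genes of their length. With the trend on length removed from each library, 26 members were higher in parabiotic cells (background 18.1%) with a median of 0.49, and 11 in transgenic cells (background 8.75%) with a median of 0.46. There were 53 members with under 10% of their exon bases overlapped and under 10% of their 50-base windows shared with other genes. In the main fit, 18 of them were higher in parabiotic cells (background 17.4%, median 0.58). In transgenic cells 10 of them were higher (background 8.88%, median 0.63). The values of Mrps34 (77.8% overlapped), Mrps25, Mrpl19 (36.0%), Mrpl43 (33.4%) and Mrps18b (30.5%) are uncertain, since strand handling was not given in the sources used here.

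Of 69 members with a window, 24 (34.8%) have an opposite-strand gene whose window overlaps their own, against 11.9% of all genes with a window and 18.2% of the tested protein-coding ones. The 22 tested partners that are no members had a median log2 fold change of 0.12 in parabiotic cells, and the 24 members themselves 0.62. Of these partners 4 were higher (Klc4, Psma2, Rab6a and Ptcd2) and 2 lower (Ska3 and Eme1). Over all tested genes 17.4% were higher and 17.9% lower, so the partners called were near that share or under it. Mrpl57 was higher (0.77 ± 0.27, adjusted p = 0.0448), while its partner Ska3, a spindle protein of dividing cells, was lower (−2.27 ± 0.49, adjusted p = 0.00408). Mrpl40 was higher and its partner, the histone chaperone gene Hira, had 0.31 ± 0.26. Of the pair that share a window, Mrpl46 had 0.48 ± 0.24 and Mrps11 0.06 ± 0.20, and neither passed the threshold.

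The rest of the mitochondrial translation system was read from gene lists, shown in the plot of list medians. Of 5 mitoribosomal proteins with other names, 3 were higher in parabiotic cells: Aurkaip1 (1.11 ± 0.18, adjusted p = 0.000691), Chchd1 (0.88 ± 0.26, adjusted p = 0.0215) and Dap3 (0.74 ± 0.23, adjusted p = 0.0294), whereas Ptcd3 (−0.11 ± 0.20) and Gadd45gip1 (0.26 ± 0.20) did not pass. In transgenic cells Aurkaip1 (0.73 ± 0.17, adjusted p = 0.0173) and Chchd1 (0.94 ± 0.25, adjusted p = 0.0296) were higher. Nuclear genes of the respiratory chain, whose complexes hold the products of mitochondrial translation, had medians of 0.63 and 0.77 in parabiotic and transgenic cells, with 33 higher and 1 lower (41.2% and 1.25%) and with 30 higher of 80 (37.5%). Cytosolic ribosomal protein genes had medians of 0.52 and 0.54, with 19 higher and 1 lower (23.2% and 1.22%) and with 8 higher of 82 (9.76%). Their sizes are close to those of the members, and the difference between lists was not tested. Over all tested genes 17.4% were higher and 17.9% lower in parabiotic cells, and 8.88% were higher in transgenic cells.

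Of 29 assembly factors 5 (17.2%, background 17.4%) were higher and 1 lower in parabiotic cells (median 0.13), a share near that of all tested genes. The higher ones were led by the RNA helicase gene Ddx28 (1.92 ± 0.20, adjusted p = 4.02e-05), with Trmt61b, Rbfa, Mpv17l2 and Noa1 between 1.09 and 0.50. The lower one was Lars2 (−1.17 ± 0.18, adjusted p = 0.000468), counted on this list although its product is the mitochondrial leucyl-tRNA synthetase. Its means of 967, 428 and 1060 CPM in microglia, parabiotic and transgenic cells were the highest on the list. How multi-mapped reads were treated was not given. Of 16 translation factors 1 was higher, the elongation factor Tsfm (0.54 ± 0.18, adjusted p = 0.0401), and 2 lower, the recycling factor Gfm2 (−1.36 ± 0.21, adjusted p = 0.000613) and the mRNA-binding Lrpprc (−0.70 ± 0.15, adjusted p = 0.00444), while the elongation factor Tufm had 0.09 ± 0.25. Among 19 other aminoacyl-tRNA synthetases and amidotransferase subunits 3 were higher (Fars2, Rars2 and Qrsl1, 15.8%), also near the background, with a median of 0.13. Of 17 genes for transcription, copying and control of mitochondrial DNA 5 were lower (29.4%, background 17.9%) and none higher by edgeR, limma-voom or DESeq2 (median −0.30, 7 with an unadjusted p under 0.05), among them Myc (−1.75 ± 0.22, adjusted p = 0.000124), the DNA polymerase Polg (−1.01 ± 0.20, adjusted p = 0.00275) and the GABP subunit Gabpb1 (−0.84 ± 0.19, adjusted p = 0.00535). Mgme1 and Tefm, which act in copying and transcribing mitochondrial DNA, were the others lower (−0.72 and −0.97). Tfam, which packages mitochondrial DNA, and the RNA polymerase Polrmt had −0.20 ± 0.23 and −0.48 ± 0.20.

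Without transgenic replicates 26 and 27 the counts higher and lower in parabiotic cells became 10 and 1 for assembly, 2 and 2 for translation factors, 3 and 2 for synthetases, 2 and 7 for mitochondrial DNA genes, 68 and 1 for the respiratory chain and 44 and 2 for cytosolic ribosomal proteins, while their medians moved by little (0.14, 0.07, 0.14, −0.29, 0.64 and 0.53). That fit called 27.4% of all tested genes higher, against 17.4% in the fit of all libraries, so the background grew too. Translation factors, synthetases and mitochondrial DNA genes lay under 27.4% higher, and the other lists above it. The share of all genes lower in that fit is not given here. In transgenic cells the same omission left 8 respiratory chain and 2 cytosolic ribosomal protein genes higher (background 9.96%), with medians of 0.30 and 0.15.

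**Figure D5:**
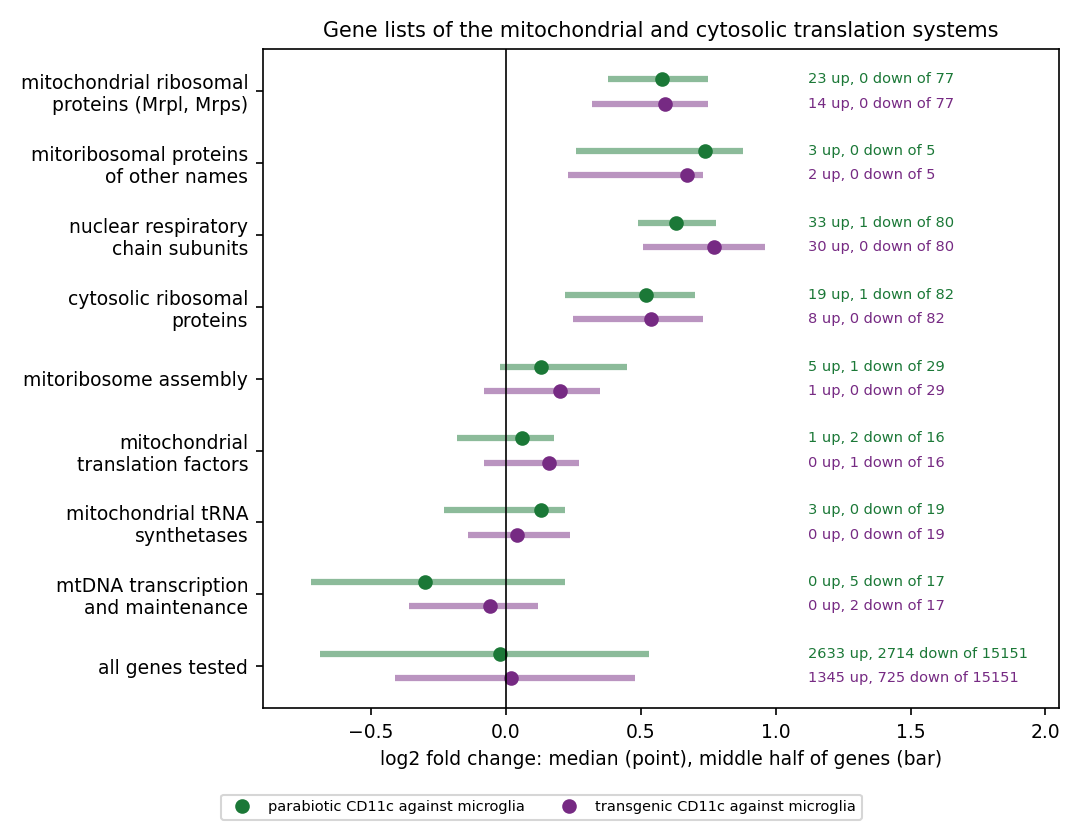
Median log2 fold change (points) and interquartile range (bars) of each gene list and of all 15151 tested genes, for parabiotic and transgenic CD11c cells against microglia, with the number called higher (up) and lower (down) by edgeR. The members, the respiratory chain and the cytosolic ribosomal proteins have medians between 0.52 and 0.77, and helper lists between −0.30 and 0.20.

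The messages that this ribosome translates are encoded in mitochondrial DNA. Only a part of them was measured: mt-Co2, mt-Co3, mt-Atp6, mt-Atp8 and mt-Nd4l had no entry in the count table. The edgeR filter left out mt-Nd3, at a mean of 0.09 CPM in microglia. For 7 tested mRNAs of the mitochondrial genome the log2 fold changes ran from −0.39 to −0.06 with a median SE of 0.39. EdgeR, limma-voom and DESeq2 called none, with none at an unadjusted p under 0.05. The ribosomal RNAs mt-Rnr1 and mt-Rnr2 had 0.09 ± 0.37 and 0.04 ± 0.41, read from poly(A)-selected RNA. In transgenic cells the mRNAs had estimates from 0.04 to 0.66, with none called by edgeR or limma-voom and 1 by DESeq2, and 5 of the 7 were higher in replicates 26 and 27 than in 23 and 24. Without 26 and 27 all 7 estimates were negative, from −0.72 to −0.28, and none was called. Cell division genes were lower in parabiotic cells, where 9 of 10 were lower (median −2.50) and none higher by edgeR, limma-voom or DESeq2. Their summed level was 452 to 781 CPM in microglia, 151 to 185 CPM in parabiotic and 495 to 1100 CPM in transgenic libraries, and its part in the members' levels was not tested.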

How the data were processed

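The deposited table holds whole-number counts per Ensembl gene in 10 libraries made from polyadenylated RNA with a template-switching kit (SMART-Seq v4) and NEBNext Ultra, per the labels' protocols. The authors aligned to GRCm38 with STAR 2.5.3a, after FastQC 0.11.5, per the submitters' processing notes, which also name DESeq2. The counting program, strand handling and treatment of multi-mapped reads were not given in the sources used here. Symbols and coordinates came from GENCODE M21.

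The members and lists were chosen with earlier results of these data known, and named genes are the up to 10 largest called changes per comparison, the 5 highest and lowest levels per length, members fixed by role and the called list genes of lowest p; Mrpl17, Mrpl47, Mrps11, Mrpl46, Mrps31, Mrpl9, Mrpl38, Mrpl4 and head-to-head partners were named after their values were seen. Replicate 15 of the parabiotic group has no cell type label and was placed by its title and age. All libraries entered 1 fit with a mean per group: TMM scaling, filterByExpr and the robust quasi-likelihood test of edgeR 4.0.16 (R 4.3.3), with Benjamini-Hochberg adjustment over 15151 genes and a threshold of 0.05. CPM use TMM-scaled totals, and log2 CPM a prior count of 2. Alternatives were other scalings and filters, fits of the 2 groups compared, a term for the set of library numbers, limma-voom 3.58.1, DESeq2 1.42.0, each library left out and, chosen after seeing the data, replicates 26 and 27 left out, trends on length and GC removed, and members with little overlap. The main edgeR test was tried on simulated counts with known changes.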

Additional observations from a re-analysis of the deposited data

Results flagged for a closer look

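In the transgenic group 1 library stood far from the other 3 for 5 of the 77 tested members, by a test that chance alone passes in about 0.05 of such groups. The set mean was checked too and was not flagged. Mrpl2 was at 42.8 CPM in replicate 27 (19.8 to 23.6 in the others) and Mrps7 at 43.5 CPM in replicate 27 (32.5 to 34.3). Replicate 26 was high for Mrpl48 at 23.2 CPM (14.9 to 15.8), for Mrps21 at 26 CPM (14.2 to 15.2) and for Mrps25 at 20.8 CPM (12.2 to 13.5). All 5 come from replicates 26 and 27, whose library numbers stand apart, and what the numbers stand for is not given in the labels. Both lay above replicates 23 and 24 for 63 of 77 members, so this shared origin is no separate observation.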

How the results depend on the processing

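No paired analysis was possible because the groups share no replicate numbers. No called member changed direction. In parabiotic cells against microglia the count of members higher moved by more than 1.5 times with only those groups fitted (52), with a term for library numbers (50) and without replicates 26 and 27 (55), and ran from 8 to 38 over fits without 1 library. In transgenic cells against microglia it was 9 with upper quartile scaling, 9 without a low-count filter, 9 with limma-voom, 23 with DESeq2, 2 with only those groups, 2 with a term for library numbers and 3 without replicates 26 and 27, and 1 to 31 without 1 library; the median was 0.24 with a term for library numbers and 0.24 without replicates 26 and 27. Between the CD11c groups the count lower was 2 with a term for library numbers and 15 without replicates 26 and 27, with medians of −0.33 and −0.35 in place of 0.04, and 0 to 3 without 1 library. Replicates 26 and 27 are both transgenic. With a term for library numbers the transgenic estimates therefore rest on replicates 23 and 24, as they do without 26 and 27. Those medians are thus no separate checks. Of 23 parabiotic calls, 8 held under all 22 settings, and of 14 transgenic calls 1, Mrpl33. Tested members had at least 23 counts per library, and Mrpl53, with 0 to 8, was too low to test.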
